A study of Mus musculus with 6 samples.

Results

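The genes described here are the cyclins, cyclin-dependent kinases and kinase inhibitors that govern the G1 phase of the cell cycle. A fixed list named 10 of them: the D-type cyclins Ccnd1, Ccnd2 and Ccnd3, the E-type cyclins Ccne1 and Ccne2, the kinases Cdk2, Cdk4 and Cdk6, and the inhibitors Cdkn1b and Cdkn2c. Probes were matched to these symbols or their synonyms, with the brightest probe standing for a gene. A probe was found for 9 of the 10, each gene having 1 probe, among 15224 genes and 21584 probes tested. Ccnd1 was not analysed here. All 9 genes were measured on all 6 arrays.

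RNA was taken from CH12F3-2A, a mouse B lymphoma line that switches from IgM to IgA. A control siRNA (siControl, 3 samples) or siRNA against the histone chaperone Spt6 (siSpt6, 3 samples) was introduced by electroporation, a transient treatment. Both groups were cultured for 24 h, then given CD40 ligand, interleukin 4 and TGF-beta (CIT), and harvested after another 24 h. The Cy5-labelled RNA of a sample was hybridised to its own 1-colour array, which gives intensities in arbitrary units. The labels give the 2-mercaptoethanol of the medium in micromolar units for siControl and in millimolar units for siSpt6. Whether the arrays of both groups were run together is not stated in the labels. The labels do not say whether replicate samples were separate cultures; p-values therefore measure the spread between these samples alone, and that spread may be technical.

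In G1, D-type cyclins made in response to growth signals bind CDK4 or CDK6 and begin the phosphorylation of the retinoblastoma protein (Rb). Rb then releases E2F transcription factors, which raise cyclin E, and cyclin E with CDK2 completes the phosphorylation and starts DNA synthesis. INK4 inhibitors such as p18 (Cdkn2c) block CDK4 and CDK6, and CIP/KIP inhibitors such as p27 (Cdkn1b) block cyclin E with CDK2. In activated B cells cyclin D2 and cyclin D3 are the main D-type cyclins, and p18 and p27 restrain B cell proliferation.

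On every array between 21526 and 22372 of 23473 probes had a value, and log2 intensities of arrays correlated at r = 0.987 to 0.991 within a group and 0.976 to 0.981 between groups (across probes, which are not independent replicates). The siRNA's target Supt6 read 33.1, 32.1 and 32.1 in siControl and 25.1, 21.8 and 28.1 in siSpt6. Its log2 difference of -0.38 (SE 0.13) did not pass the threshold (limma adjusted p = 0.0973), though it did after cyclic loess normalization (limma adjusted p = 0.0491). B cell markers were present: 7 of 7 measured markers lay above the median brightness of tested probes, Pax5 and Ighm only just (percentiles 52.9 and 52.8). T cell markers were dim, with 0 of 6 above it. The summed B cell marker intensity was 14229 to 17059 in siControl and 18678 to 20041 in siSpt6, with Cd79b higher and Cd22 lower past the threshold. Myeloid markers summed to 236 to 284 and to 271 to 350 in siControl and siSpt6, with 2 of 6 (Csf1r and Cd68) above the median brightness. Plasma cell markers summed to 2172 to 2399 and to 1769 to 2026, with 2 of 5 above that brightness. Of these 11 genes only Xbp1 passed the test, as lower. Among all tested genes 9.65% passed as lower and 7.40% as higher. The summed levels of fibroblast markers (77.9 to 135 in siControl, 75.2 to 85.4 in siSpt6, 4 measured) and erythroid markers (76.8 to 93.6 and 81.4 to 94.9, 3 measured) overlapped between groups. Above the median brightness lay 1 of the 4 (Pdgfrb) and 1 of the 3 (Gata1). The highest fibroblast sum, 135, includes Dcn at 48.8 in siControl replicate 2, against 4.35 and 2.02 in siControl replicates 1 and 3. The part of these markers in the results below was not tested.

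Cyclin D2, cyclin E1 and both partners of the D-type cyclins were lower in cells given siRNA against Spt6. Of the 9 genes, Ccnd2, Ccne1, Cdk4 and Cdk6 fell and 0 rose at a limma Benjamini-Hochberg adjusted p under 0.05 over all tested probes, which is what "fell" and "rose" mean throughout. Of the 5 others, Cdkn1b was higher and Ccne2 lower at an unadjusted p under 0.05 (limma unadjusted p = 0.0244 and 0.0103). The share of all genes under that unadjusted threshold was not counted, but it cannot be smaller than the share past the adjusted one. An unadjusted p of 0.0473 (E2f6) became 0.159 on adjustment (limma), so many probes lay under 0.05. These 2 of 5 genes are therefore not shown to stand out. Among all tested genes 9.65% fell, 7.40% rose and 17.0% did either. Of the probes that changed, 45.5% were higher as deposited and 57.3% after quantile normalization. The median log2 change of the 9 genes was -0.47, against -0.00 over all tested genes. For 5 of the genes every siSpt6 value was under every siControl value (Ccnd2, Ccne1, Ccne2, Cdk4 and Cdk6), a pattern seen in 21.6% of genes with 6 values. They lay above for Cdkn1b alone, where 16.9% of genes did so. The inhibitors Cdkn1b and Cdkn2c had positive log2 changes and the 7 cyclins and kinases had negative ones. An array measures RNA per sample, so fewer cells in a cycle phase and less RNA per cell cannot be told apart.

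**Figure D1:**
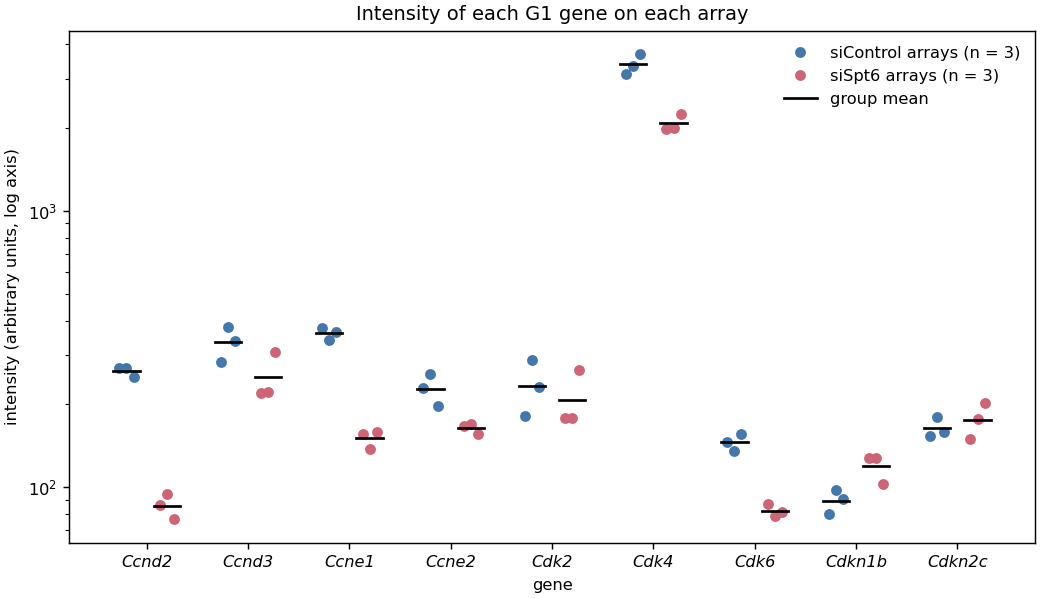
Intensity in arbitrary units (log axis) of 9 G1 genes on each of the 3 siControl (blue) and 3 siSpt6 (red) arrays, with black bars for group means. The groups are widest apart for Ccnd2, whose siSpt6 values reach at most 94.3 while its siControl values start at 251, and they overlap for Ccnd3, Cdk2 and Cdkn2c.

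Ccnd2 had the largest change of the 9 genes. It encodes cyclin D2, the D-type cyclin that antigen receptor and cytokine signals induce in B cells. It read 269, 269 and 251 in siControl and 86.6, 94.3 and 76.5 in siSpt6. The groups were far apart, with the brightest siSpt6 array 1.41 log2 units below the dimmest siControl array. The mean went from 263 ± 10.5 to 85.8 ± 8.92 (intensity ± SD, n = 3 each), a 3.08-fold fall (log2 change -1.62, SE 0.13, limma adjusted p = 0.00078). Only 49 of 15224 tested genes had a more negative log2 change. Leaving out each array in turn gave log2 changes from -1.69 to -1.54, all past the threshold.

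Ccnd3, which encodes cyclin D3, the D-type cyclin that sustains the division of germinal centre and precursor B cells, read 283, 381 and 339 in siControl and 219, 222 and 308 in siSpt6. The groups overlapped, because the third siSpt6 array was brighter than the first siControl array. The log2 difference of -0.43 (SE 0.19, 95% interval -0.87 to 0.01) did not pass the threshold (limma adjusted p = 0.174). The interval leaves room for a level between 0.547 and 1.01 times that of the control. Cyclin D2 and cyclin D3 were set against each other within each array, so that their changes, not their levels, were compared. Relative to the siControl mean, the log2 difference of Ccnd2 minus Ccnd3 was -1.0, -0.90 and -1.67 in siSpt6, and 0.26, -0.16 and -0.10 in siControl. The change of Ccnd2 was thus 1.19 log2 units more negative, with no overlap between the groups.

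Cyclin E1 was also clearly lower. Ccne1, a classical E2F target whose product activates CDK2 at the start of S phase, read 378, 342 and 365 in siControl and 156, 138 and 158 in siSpt6. No siSpt6 array came near the siControl range, and the gap was 1.11 log2 units. The fall was 2.40-fold (log2 change -1.26, SE 0.12, limma adjusted p = 0.00143), and 144 tested genes had a more negative change. Each of the 6 fits without 1 array kept the call, with log2 changes from -1.30 to -1.20.

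Ccne2, which encodes the closely related cyclin E2, read 229, 256 and 197 in siControl and 166, 169 and 156 in siSpt6. The siSpt6 arrays were tightly grouped below all siControl arrays, but the gap was only 0.23 log2 units and the siControl arrays were uneven. The log2 difference of -0.47 (SE 0.13, 95% interval -0.79 to -0.15) missed the threshold narrowly (limma adjusted p = 0.0584). Within arrays, the change of Ccne1 was 0.79 log2 units more negative than that of Ccne2 (difference of changes -0.79), and the siSpt6 arrays, at -0.76, -0.96 and -0.65, lay apart from the siControl arrays, at 0.05, -0.26 and 0.21.

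**Figure D2:**
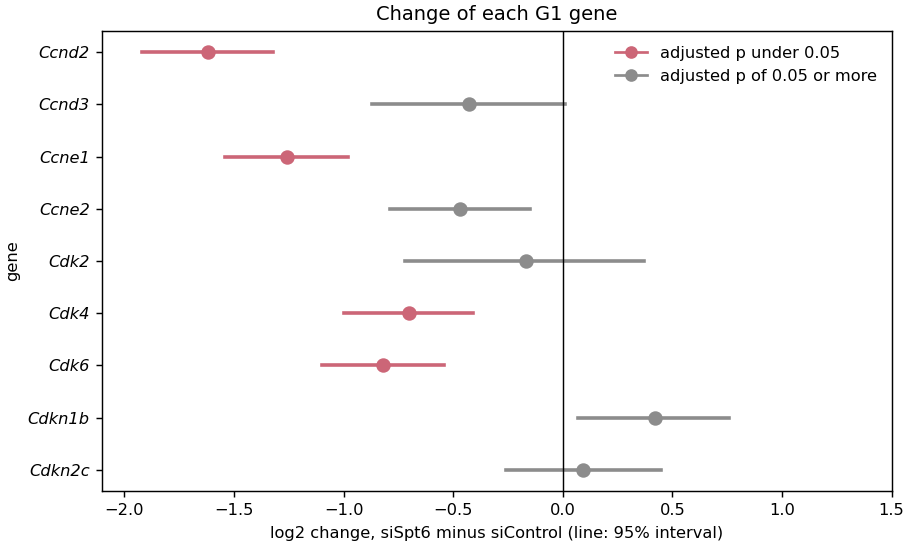
Log2 change (siSpt6 minus siControl) of each G1 gene, with points for the limma estimate, lines for its 95% interval and red for adjusted p under 0.05. Ccnd2 (-1.62), Ccne1 (-1.26), Cdk6 (-0.82) and Cdk4 (-0.70) pass the threshold, and the intervals of Ccnd3, Cdk2 and Cdkn2c span 0.

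Among the kinases, those that bind D-type cyclins fell and the one that binds cyclin E did not pass the test. Cdk6 read 146, 135 and 156 in siControl and 87.0, 78.6 and 81.4 in siSpt6, with no overlap. Its level fell 1.77-fold (log2 change -0.82, SE 0.12, limma adjusted p = 0.00581), and every fit without 1 array kept the call. Cdk4, the other kinase of cyclin D, was the brightest of the 9 probes. It read 3133, 3348 and 3675 in siControl and 1983, 1998 and 2248 in siSpt6, again without overlap. Its mean went from 3385 ± 273 to 2076 ± 149 (n = 3 each), a 1.63-fold fall (log2 change -0.70, SE 0.12, limma adjusted p = 0.0111).

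The call of Cdk4 depended on the scaling. After quantile and cyclic loess normalization, which even out shifts tied to brightness, its log2 change was -0.40 (limma adjusted p = 0.0733) and -0.43 (limma adjusted p = 0.0568). Brightness and change moved together over all genes: the median log2 change was -0.24 in the brightest 10% of tested genes, which hold Cdk4, and 26.9% of those genes fell while 6.04% rose. The 10% bins of brightness that hold the other members had medians between -0.11 and -0.02. The log2 changes of Ccnd2, Ccne1 and Cdk6 were -1.55, -1.16 and -0.77 after quantile normalization, with limma adjusted p = 0.00109, 0.0017 and 0.00746. The part of brightness in the change of Cdk4 was not tested beyond these values.

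**Figure D3:**
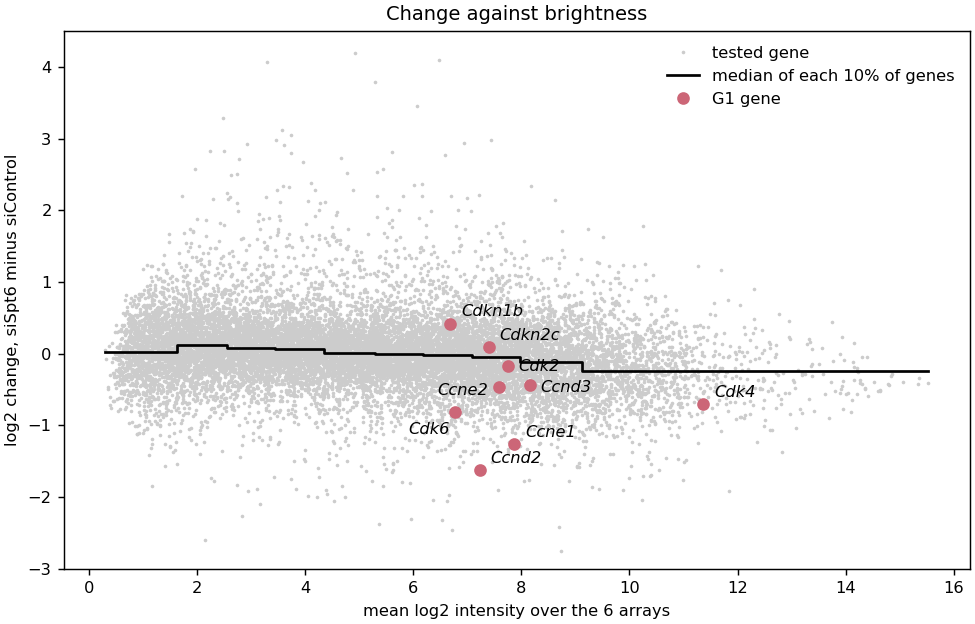
Log2 change (siSpt6 minus siControl) of each tested gene (grey) against its mean log2 intensity over the 6 arrays, with the G1 genes in red and a black line for the median of each 10% of genes by brightness. The median line drops to -0.24 in the brightest 10%, where Cdk4 lies at -0.70, and Ccnd2 and Ccne1 lie far below the line at mid brightness.

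Cdk2, the partner of cyclin E, read 181, 288 and 230 in siControl and 178, 178 and 265 in siSpt6. The groups overlapped widely. Its log2 difference was -0.17 (SE 0.23, limma adjusted p = 0.674), with a 95% interval for the ratio of siSpt6 to siControl from 0.608 to 1.30, so a fall of the size seen for Cdk4 (to 0.614) lies just inside the interval. The same arrays were highest for Cdk2, Ccnd3 and Cdkn2c, namely siControl replicate 2 and siSpt6 replicate 3. Leaving out siSpt6 replicate 3 gave log2 differences of -0.36 for Cdk2 and -0.59 for Ccnd3, and leaving out siControl replicate 2 gave -0.01 and -0.33, none of which passed the threshold. Between the kinases, the change of Cdk2 was 0.53 log2 units less negative than that of Cdk4, with siSpt6 arrays at 0.41, 0.39 and 0.80 and siControl arrays at -0.23, 0.34 and -0.11. This difference was 0.31 after quantile and 0.34 after cyclic loess normalization. Between Cdk4 and Cdk6 the difference of changes was 0.12 as deposited, with overlap between the groups, and 0.36 after quantile normalization.

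The inhibitors did not pass the test in either direction. Cdkn1b, whose product p27 holds cyclin E with CDK2 inactive in resting cells, read 80.0, 97.7 and 90.5 in siControl and 128, 128 and 103 in siSpt6. All siSpt6 arrays were brighter than all siControl arrays, but the third only by 0.07 log2 units over the nearest siControl array. The log2 difference was 0.42 (SE 0.14, 95% interval 0.07 to 0.76, limma adjusted p = 0.103), and the ratio of siSpt6 to siControl was 1.33. Cdkn2c, whose product p18 binds CDK4 and CDK6, read 153, 180 and 158 in siControl and 149, 176 and 201 in siSpt6. The groups overlapped, and the lowest value of all was in siSpt6. Its log2 difference was 0.09 (SE 0.15, limma adjusted p = 0.73, ratio 1.07 with a 95% interval from 0.833 to 1.37), and it changed sign, to -0.01, without siSpt6 replicate 3.

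Inhibitors were also set against the kinases they bind. The change of Cdkn2c was 0.80 log2 units more positive than that of Cdk4, with the siSpt6 arrays at 0.64, 0.87 and 0.89 and the siControl arrays at 0.01, 0.16 and -0.17. After quantile normalization this difference was 0.56. For Cdkn1b against Cdk2 the difference of changes was 0.59, but the siSpt6 arrays were split, at 0.88, 0.88 and -0.00, and overlapped with siControl. In all, 6 pairs were compared by a two-sided exact permutation test over the arrays. The 4 pairs without overlap (Ccnd2 with Ccnd3, Ccne1 with Ccne2, Cdk2 with Cdk4, Cdkn2c with Cdk4) each had an exact p = 0.1, the smallest that 3 against 3 arrays can give, and an adjusted p of 0.15 over the 6 pairs. The other two, Cdkn1b with Cdk2 and Cdk4 with Cdk6, had exact p = 0.3 and 0.4. No pair could therefore pass 0.05 in this design.

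The promoters of these genes were read from RefSeq (mouse assembly GRCm38.p6), as windows from 250 bases before to 50 bases after each annotated gene start, on the gene's strand. Windows were found for 7 of the 10 genes (9 windows): Ccnd3, Ccne1, Cdk2, Cdk4, Cdk6, Cdkn1b and Cdkn2c. Not matched were Ccnd1, Ccnd2 and Ccne2. Each of the 7 genes had a window with at least 20 CpG dinucleotides, which 26.5% of 32851 windows had. Both strands were searched for the E-box CACGTG, bound by Myc with Max and by other factors, for the E2F letters TTTCCCGC, TTTCGCGC, TTTGCCGC and TTTGGCGC, and for the FOXO letters TGTTTAC. The E-box reads alike on both strands, and none of the motifs found here overlapped another.

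Cdk4 has 4 E-boxes, beginning 172, 118, 98 and 11 bases before the gene start. Of all windows 7.15% held at least 1 E-box (11.6% of those with at least 20 CpG), and 8 of 32851 held 4 or more. Cdk6 has 1, beginning 220 bases before its start, and Cdkn2c has 1 downstream of its second start. Cdk2 has the only E2F match, beginning 140 bases before the start, where 2.26% of all windows and 5.15% of those with at least 20 CpG hold one, and Ccnd3 has the only FOXO match, at its first start (3.65% of all windows, 1.84% of those with at least 20 CpG). The stretches that hold the matches of the kinases are printed below, and the part of these letters in the changes was not tested. They lie on chr10:127063285-127063534 (plus strand, Cdk4, bases 250 to 1 before the start), chr5:3343643-3343702 (plus strand, Cdk6, bases 250 to 191) and chr10:128705162-128705221 (minus strand, Cdk2, bases 170 to 111). Capitals mark the E-boxes of Cdk4 and Cdk6 and the E2F letters of Cdk2, which there run on the opposite strand.
Cdk4: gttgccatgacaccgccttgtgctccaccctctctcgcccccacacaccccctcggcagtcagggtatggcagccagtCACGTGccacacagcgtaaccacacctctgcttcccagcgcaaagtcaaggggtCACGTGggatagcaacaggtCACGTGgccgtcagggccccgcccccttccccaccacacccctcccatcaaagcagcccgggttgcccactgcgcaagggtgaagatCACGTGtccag
Cdk6: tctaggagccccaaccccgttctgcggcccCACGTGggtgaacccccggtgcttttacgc
Cdk2: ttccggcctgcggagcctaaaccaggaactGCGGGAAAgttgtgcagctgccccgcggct
A match describes the letters in the window and does not show that a factor binds there. Of the 3 genes with an E-box, Cdk4 and Cdk6 fell, the former not past the threshold after quantile or cyclic loess normalization, and Cdkn2c did not pass the test (log2 difference 0.09). Ccne1 fell with no match to any of the 3 motifs in its window and Cdk2, with E2F letters, did not pass the test.

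**Figure D4:**
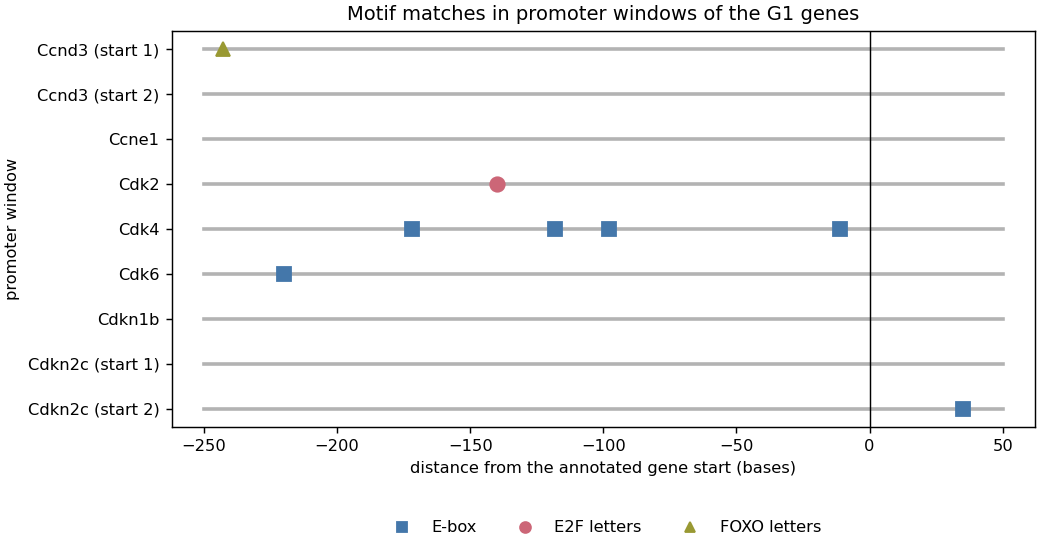
Positions of E-box (square), E2F (circle) and FOXO (triangle) letters in the RefSeq promoter windows of 7 G1 genes, as distance in bases from the annotated gene start. Cdk4 holds 4 E-boxes, Cdk6 1 upstream and Cdkn2c 1 downstream, and the windows of Ccne1 and Cdkn1b hold no match.

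Transcription factors known to act on these genes moved both ways, and their part in the changes of the G1 genes was not tested. Of 9 with a tested probe, 3 rose and 1 fell, against 7.40% and 9.65% of all tested genes, with a median log2 change of 0.51. Myc, which activates Ccnd2 and Cdk4 through E-boxes, read 1050, 1319 and 999 in siControl and 420, 633 and 662 in siSpt6. Its groups were well apart, and it fell 1.99-fold (log2 change -0.99, SE 0.21, limma adjusted p = 0.0224), a call lost without siControl replicate 1 or 2 (limma adjusted p = 0.0536 and 0.0663). Foxo1, which represses D-type cyclins and activates Cdkn1b, rose 1.94-fold (183, 189 and 205 against 337, 361 and 425, limma adjusted p = 0.00535). Foxp1, a related forkhead factor of B cells, rose 1.59-fold (limma adjusted p = 0.0192), a call lost without siControl replicate 2 or 3 or siSpt6 replicate 2 (limma adjusted p up to 0.0611). Bcl6, a repressor of Ccnd2 and the third gene that rose, was named after its values were seen. It was very dim, at 3.43, 1.28 and 2.12 in siControl and 7.78, 5.03 and 8.18 in siSpt6, and its call was lost without siControl replicate 3, siSpt6 replicate 1 or siSpt6 replicate 3 (limma adjusted p up to 0.0736).

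Rb and E2F genes, which lie just downstream of the D-type cyclins, had negative log2 changes in 11 of 13 cases, as did 7644 of all 15224 tested genes. Of the 13, 3 fell and 1 rose, against 9.65% and 7.40% of all tested genes, with a median log2 change of -0.25. Tfdp1, the dimerization partner of E2F proteins, fell 1.80-fold from 1392 ± 189 to 770 ± 10.2 (n = 3 each, limma adjusted p = 0.00795). E2f1, the activator first released from Rb, fell 1.61-fold (91.8, 96.7 and 94.0 against 63.9, 51.9 and 60.0, limma adjusted p = 0.0123). E2f3, a second activator and the remaining fall, was named after its value was seen (log2 change -0.61, limma adjusted p = 0.0217). Rb1 itself read 34.1, 27 and 24.8 in siControl and 62.8, 39.3 and 46.4 in siSpt6, a 1.71-fold rise that passed narrowly (limma adjusted p = 0.0492). With quantile normalization it missed the threshold (limma adjusted p = 0.0544), as it did when siSpt6 replicate 1 or 3 or any siControl replicate was left out (limma adjusted p up to 0.123).

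Genes that E2F drives at the start of S phase had negative log2 changes in all 20 measured cases: 13 fell and 0 rose (limma, also 0 at an unadjusted p under 0.05), with a median log2 change of -0.94. Among all tested genes 9.65% fell, 7.40% rose and 7644 of 15224 had negative changes. Many genes of this list lie in the brightest 10% of tested genes, where 26.9% fell and the median log2 change was -0.24. After quantile and cyclic loess normalization 10 and 11 fell, with medians of -0.68 and -0.71. Of all 21584 probes 1379 and 1567 fell under them, against 1922 as deposited. Tyms, thymidylate synthase, fell 2.63-fold and Pola1, the catalytic subunit of DNA polymerase alpha, fell 2.16-fold (302, 290 and 320 against 130, 151 and 141, limma adjusted p = 0.00217). E2F letters were found in the promoter windows of 9 of the 18 genes of that list with a window, and in 1 of the 7 G1 genes with one. Of the 6 cyclins and kinase of later phases 3 were measured: Ccna2 fell 1.64-fold (limma adjusted p = 0.0116) and Cdk1 fell 1.79-fold (limma adjusted p = 0.00793), while Ccnb2 did not pass (limma adjusted p = 0.0517). Ccna2 missed the threshold with quantile normalization (limma adjusted p = 0.051).

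**Figure D5:**
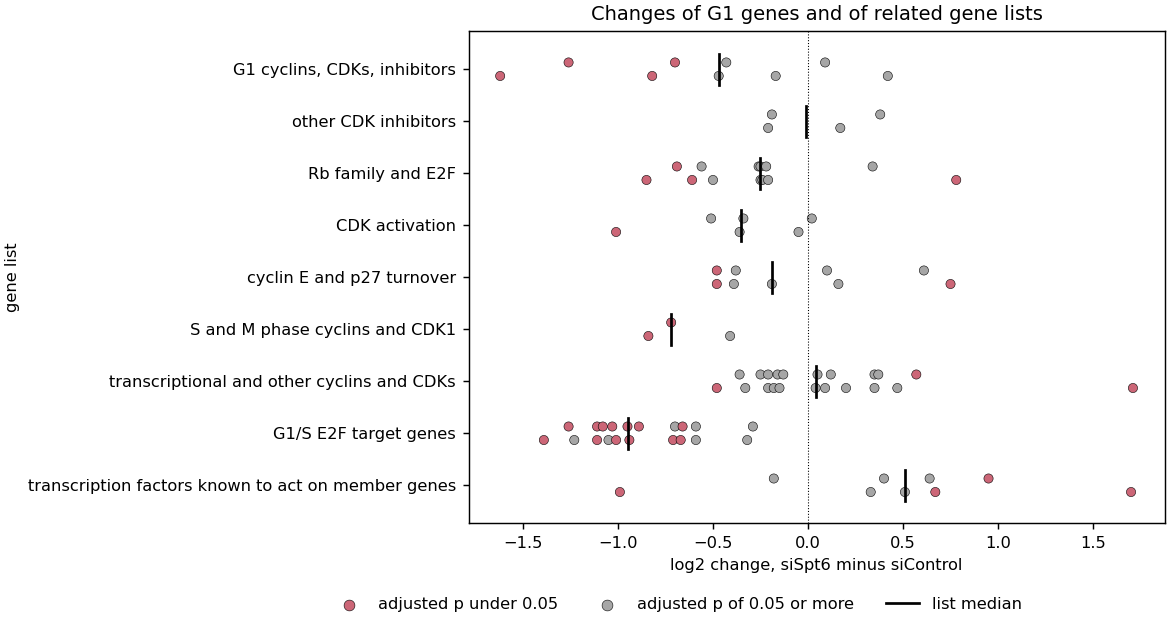
Log2 change (siSpt6 minus siControl) of each gene in the G1 list and in 8 related lists, with red for adjusted p under 0.05, grey for the others and a black bar for each list's median. The medians are -0.47 for the G1 genes, -0.94 for E2F target genes and 0.04 for transcriptional and other cyclins and CDKs; vertical offsets within a list carry no value.

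Regulators that act on the proteins of these genes moved unevenly. Of 6 genes that activate or restrain CDKs 1 fell and 0 rose (median log2 change -0.35), against 9.65% and 7.40% of all tested genes. At an unadjusted p under 0.05 also 0 were higher (limma). Cdc25a, the phosphatase that activates CDK2, fell 2.02-fold from 468 ± 52.3 to 231 ± 14.4 (n = 3 each, limma adjusted p = 0.00424). Of 9 genes for the turnover of cyclin E and p27, 2 fell and 1 rose (median log2 change -0.19), against 9.65% and 7.40% of all tested genes. After quantile or cyclic loess normalization 0 fell and 2 rose, with medians of 0.00 and -0.01. Of all 21584 probes 1379 and 1567 fell and 1853 and 1808 rose under them, against 1922 and 1603 as deposited. Over all alternatives 0 to 4 fell and 1 to 2 rose. The 4 falls came with a pseudocount, bright probes only or trend and robust options. Of all probes 2293 of 21584, 2515 of 10792 and 2572 of 21584 fell in these settings. Rbx1, the RING subunit of SCF ubiquitin ligases, rose 1.68-fold (199, 188 and 179 against 322, 329 and 300, limma adjusted p = 0.00685). Skp2, which targets p27 for destruction, and its cofactor Cks1b fell 1.39-fold and 1.40-fold (limma adjusted p = 0.0294 and 0.044). Neither passed with quantile normalization (limma adjusted p = 0.123 and 0.46), with cyclic loess or with any single array left out (limma adjusted p up to 0.0875 and 0.121). A second, dim probe of Cks1b had a log2 difference of 0.44 (limma adjusted p = 0.124), opposite in sign to the bright one.

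The other CDK inhibitors measured, Cdkn1a, Cdkn1c, Cdkn2a and Cdkn3, had 0 rises and 0 falls (limma), with 0 of 4 at an unadjusted p under 0.05 and a median log2 difference of -0.01. Cdkn1c and Cdkn2a were very dim (brightness percentiles 9.1 and 8.89), so their lack of a call says little. Cdkn1a and Cdkn3 lay at percentiles 41.8 and 77.5. Among all tested genes 7.40% rose and 9.65% fell. The p53 target Cdkn1a (p21) read 18.8, 18.7 and 24.3 in siControl and 16.4, 16.3 and 21.8 in siSpt6, with overlap. Of 21 measured cyclins and CDKs that act in transcription or in other roles, 2 rose (9.52%) and 1 fell (4.76%), against 7.40% and 9.65% of all tested genes, with a median log2 change of 0.04. After quantile normalization 4 rose and 0 fell, after cyclic loess normalization 5 and 0, and with bright probes only 6 and 1. The counts over all probes moved too. From 1603 rises and 1922 falls of 21584 probes, quantile normalization gave 1853 and 1379 and cyclic loess 1808 and 1567. Bright probes only gave 1459 and 2515 of 10792. Ccng2, an unconventional cyclin linked to cell cycle exit and a known FOXO target, rose 3.27-fold (218, 246 and 255 against 741, 760 and 851, limma adjusted p = 0.000676), about as far up as Ccnd2 went down. Cdk9, the kinase of P-TEFb, rose 1.49-fold (limma adjusted p = 0.0376) and Cdk8, the Mediator kinase, fell 1.39-fold (limma adjusted p = 0.0384). Cdk9 missed it when siSpt6 replicate 1 or 3 or any siControl replicate was left out (limma adjusted p up to 0.108). Cdk8 missed the threshold with quantile normalization (limma adjusted p = 0.163), with cyclic loess and with any single array left out (limma adjusted p up to 0.114). The difference between this list and the G1 genes was not tested.

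Across the 6 arrays, the genes whose log2 values ran most like those of Ccnd2 among 8114 bright genes were Abhd6 (Pearson r = 0.9986), Tmem97 (r = 0.9984) and 2610318N02Rik (r = 0.9980). Their log2 changes were -0.10, -1.11 and -1.01, so a high r over these arrays did not mean a change as large.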

How the data were processed

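The authors deposited intensity values on a linear scale, 1 column per array. Per the labels' protocols, total RNA was amplified to amino allyl RNA and coupled to Cy5 for a TORAY array. How background was corrected and arrays were normalized is not stated in the labels. Array medians were 29.97 to 30 and agreed within 0.00109 on the log2 scale, so values were used as deposited and log2-transformed, blanks (4.69% to 8.29% of probes) being missing. With medians this alike, a change common to most probes could not be seen, and all changes are relative to the median probe. The number of arrays limits the precision. Probes were named from the platform annotation (16631 of 23473 with 1 symbol, 0 with several, 6842 unnamed), with older symbols updated through RefSeq names of GRCm38.p6.

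Probes with at least 2 values in each group were fitted with limma 3.58.1 (lmFit, eBayes, group as the only term, two-sided) in R 4.3.3, with Benjamini-Hochberg adjustment across the 21584 probes tested. Fold changes compare geometric means. Beyond the members and Supt6, the text names from each list at most 2 rises and 2 falls, those of smallest adjusted p (Bcl6, E2f3, Ccnb2, the other CDK inhibitors and the cell type markers named with a result were added after their values were seen), and the 3 bright genes whose log2 values correlated best with those of the member of smallest adjusted p. The members and gene lists were chosen with earlier results of these data known. The script was tested on simulated data. Alternatives were quantile, cyclic loess and median scaling, a pseudocount of 2.66, bright or complete probes only, a replicate block, array weights, trend and robust options of eBayes, and fits without 1 array. Those for genes and lists outside the members were partly chosen after seeing the data.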

Additional observations from a re-analysis of the deposited data

How the results depend on the processing

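Ccnd2, Ccne1 and Cdk6 kept their direction and call under all 15 alternatives, and Cdk4 under all but quantile and cyclic loess normalization (log2 change -0.40 and -0.43). Median scaling is counted here and in the 135 values below. It could hardly change a value, because array medians already agreed within 0.00109 log2 units. Of 135 member values under alternatives, 125 kept direction and side of the threshold. The count of members that fell was 3 to 5 and the count that rose was 0, except 1 (Cdkn1b) with bright probes only and with trend and robust options (limma adjusted p = 0.0336 and 0.0483). In these settings 2515 of 10792 and 2572 of 21584 probes fell and 1459 and 1996 rose. As deposited, 1922 of 21584 fell and 1603 rose. With 5 members, 2293 fell with a pseudocount and 2058 with array weights, but 1362 of 21188 without siControl replicate 3. With 3 members, 1379 (quantile) and 1567 (cyclic loess) fell. Ccne2 passed with a pseudocount, bright probes only, trend and robust options, array weights or without siControl replicate 3 (limma adjusted p = 0.0345, 0.015, 0.0184, 0.0457 and 0.0483). Leaving out 1 array gave 1047 to 1124 probes higher and 1052 to 1421 lower, against 1603 and 1922, a median member change from -0.59 to -0.38, and for Cdkn2c log2 differences from -0.01 to 0.21. Of changed probes 45.5% were higher as deposited and 57.3% after quantile normalization; the medians of all probes moved by less than 0.1. Deviations of same-numbered arrays from their group means correlated at r = 0.351, 0.076 and 0.262. Same-numbered arrays may therefore share some variation. For arrays of different number r was from -0.292 to 0.016. These lower values are no separate evidence, because deviations from a group mean cancel out within the group. The main fit has no term for variation shared by same-numbered arrays, and the replicate block adds one. With the replicate block 4 members fell, 0 rose, and 1630 probes were higher and 1964 lower. The mean of a gene's probes gives the same values, since each member has 1 probe. Dim probes such as Bcl6 have no stated detection limit.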
